A study of Mus musculus with 8 samples.

Results

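A set of 10 genes that mark intestinal crypt stem cells or respond to Wnt signalling were followed across mature medullary thymic epithelial cells (mTEC) and small intestine epithelial cells (SIEC) of Cdx1-/- and Cdx1+/+ mice. The genes were Lgr5, Ascl2, Olfm4, Axin2, Bmi1, Tnfrsf19, Smoc2, Sox9, Rnf43 and Znrf3. They were taken as every probe that carries 1 of these gene names in the scanner files, which gave 14 probes of 55669 and 10 of 34963 gene names. Expression was measured with 1-colour arrays of total RNA, 1 array per sample and 8 in all.

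The mTEC groups were Cdx1-/- and Cdx1+/+ with 3 arrays each, and SIEC had 1 array labelled Cdx1-/- (replicate 2) and 1 labelled Cdx1+/+ (replicate 1). All mice were of a mixed background of C57BL/6 and 129, and age, sex and the design of the Cdx1 allele are not stated in the sources used. Live mTEC were sorted as Epcam- and UEA1-binding, CD45-negative cells with high CD80 and MHC class II, and each sample pooled 4 to 6 thymi. Live SIEC were sorted only as Epcam-positive and CD45-negative, so a sample, pooled from 3 mice, can hold crypt and villus cells of every type. Whether replicate pools were wholly separate is not stated, so the p-values measure the spread between these samples.

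Wnt ligands hold β-catenin away from its destruction complex by binding Frizzled receptors with the coreceptors Lrp5 and Lrp6, and β-catenin then switches on genes through Tcf/Lef factors. At the base of the intestinal crypt this signal keeps stem cells dividing. R-spondins, which bind Lgr receptors, strengthen it by clearing the ligases Rnf43 and Znrf3 that otherwise remove Frizzled from the surface. Cdx1 is a homeobox factor of the gut lining. By its title the series asks how losing Cdx1 alters the ectopic expression of tissue genes in mTEC.

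Promoter sequence was available for 6 of the 10 genes, in 8 windows, from RefSeq on GRCm38.p6. Each window was searched on both strands for the Tcf/Lef motifs CTTTGAT and CTTTGAA and the Cdx motifs TTTATG and TTTATA, over 300 bases around the start site. The 250 bases upstream of the start are shown for the 2 genes that passed the genotype test in mTEC (Tnfrsf19, Bmi1), for the 1 gene with a Cdx motif (Olfm4) and for Axin2, the most widely used Wnt target of the set. Capitals mark a motif.
Tnfrsf19, minus strand, chr14:61037988-61038237: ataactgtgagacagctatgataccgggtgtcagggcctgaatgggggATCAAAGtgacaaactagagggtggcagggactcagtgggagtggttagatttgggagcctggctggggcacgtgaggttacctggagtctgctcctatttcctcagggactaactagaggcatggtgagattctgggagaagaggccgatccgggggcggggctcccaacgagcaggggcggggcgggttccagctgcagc
Bmi1, plus strand, chr2:18676768-18677017: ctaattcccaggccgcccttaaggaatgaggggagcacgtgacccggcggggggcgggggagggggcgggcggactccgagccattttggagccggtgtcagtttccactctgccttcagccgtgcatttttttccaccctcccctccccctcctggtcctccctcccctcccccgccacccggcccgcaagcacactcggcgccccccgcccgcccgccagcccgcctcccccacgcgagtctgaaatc
Olfm4, plus strand, chr14:80000052-80000301: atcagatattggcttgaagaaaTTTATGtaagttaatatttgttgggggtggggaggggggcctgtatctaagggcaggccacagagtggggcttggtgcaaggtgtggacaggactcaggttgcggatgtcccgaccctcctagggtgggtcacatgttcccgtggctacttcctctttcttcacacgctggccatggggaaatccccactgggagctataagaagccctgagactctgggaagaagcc
Axin2, plus strand, chr11:108920099-108920348: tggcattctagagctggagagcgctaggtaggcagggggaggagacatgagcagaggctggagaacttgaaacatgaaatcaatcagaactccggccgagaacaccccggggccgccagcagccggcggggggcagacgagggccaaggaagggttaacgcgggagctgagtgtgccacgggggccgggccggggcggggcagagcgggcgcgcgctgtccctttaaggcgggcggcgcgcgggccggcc

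CTTTGAT was in 1 of the 8 windows, that of Tnfrsf19 shown, where it lies on the opposite strand (written ATCAAAG) at position −202 from the start site. It was in 3.73% of all 32851 promoter windows of that length. TTTATG was in 1 of the 8, that of Olfm4, at position −228, against 11.9% of all windows. CTTTGAA and TTTATA were in 0 of the 8, against 5.14% and 13.6% of all windows. The Bmi1, Axin2 and Ascl2 upstream stretches were rich in G and C, at 70.4%, 69.2% and 67.6% against a median of 52.4% over all windows. A match, or the lack of one, is a description of these letters only.

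A level is the log2 processed signal minus that array's 75th percentile, and levels of different probes are not compared with each other. Of 59305 spots, 58.6% to 63.5% were well above background on the mTEC arrays and 44.6% to 46.3% on the SIEC arrays, and no spot was saturated. Cdx1 read 4.80 to 5.00 in Cdx1-/- mTEC and 5.88 to 5.96 in Cdx1+/+ mTEC, a log2 difference of −0.99 (limma, adjusted p = 0.00373). In SIEC it went against the labels, since the library labelled Cdx1-/- read 6.48 and the library labelled Cdx1+/+ read 4.87, so SIEC directions are given by label throughout. Without the design of the allele, this probe may lie outside the deleted part and then checks nothing. Tissue markers matched the labels: 10 of 11 mature mTEC markers were higher in mTEC, among them the regulators Aire and Fezf2, which were well above background on all 6 mTEC arrays and on neither SIEC array. The exception was Epcam, lower in mTEC, and 11 of 12 villus enterocyte markers were also lower in mTEC.

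In mTEC, 2 of the 10 genes rose with the Cdx1-/- genotype, Tnfrsf19 by 1.54-fold and Bmi1 by 1.46-fold, and none fell, also at an unadjusted p under 0.05. Across all 24338 genes tested, 6.28% rose and 6.61% fell, 12.9% in either direction, and 31.1% had an unadjusted p under 0.05 (limma). With only 10 genes, a count of 2 is not set apart from these shares. The other 8, including the stem cell genes Lgr5, Ascl2, Olfm4 and Smoc2, did not pass the test (limma, Benjamini-Hochberg adjustment over all genes, threshold 0.05, 2-sided, 3 arrays against 3). The arrays of both genotypes did not overlap for 4 of the 10 (Bmi1, Tnfrsf19, Smoc2 and Znrf3), which is close to the 38.0% of all genes with that property. The median log2 difference was 0.174 over the 10 genes and 0.003 over all genes.

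**Figure D1:**
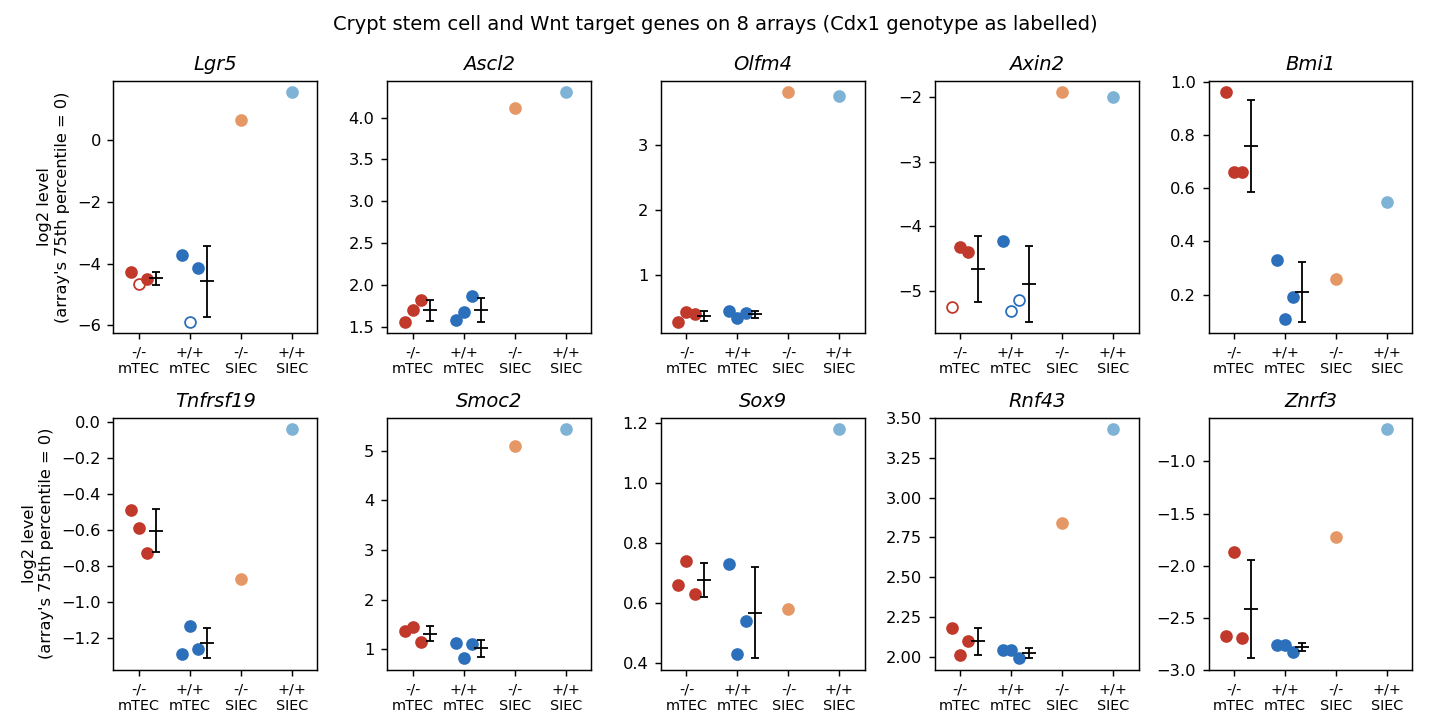
Log2 level (the array's 75th percentile is 0) of each gene's probe on each of the 8 arrays, with a vertical scale of its own for each gene. Filled points are well above background, open points are not, and black marks give the mean and SD of 3 arrays. Lgr5 reads −5.88 to −3.72 on the mTEC arrays and 0.66 and 1.55 on the SIEC arrays, and for Tnfrsf19 and Bmi1 the 3 Cdx1-/- mTEC points lie above the 3 Cdx1+/+ mTEC points.

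Tnfrsf19 (TROY) is a receptor of the tumour necrosis factor receptor superfamily, a Wnt target that marks crypt stem cells. Its probe for NM_013869 on chromosome 14 from 61582873 to 61582932 (mm9, minus strand) read −0.49, −0.59 and −0.73 in Cdx1-/- mTEC and −1.29, −1.13 and −1.26 in Cdx1+/+ mTEC. All Cdx1-/- values were above all Cdx1+/+ values. The log2 difference was 0.63 with a standard error of 0.10 (95% interval 0.39 to 0.86, adjusted p = 0.0128). Within slide 1, which holds 2 Cdx1-/- and all 3 Cdx1+/+ mTEC arrays, it was 0.569 (adjusted p = 0.0353), and the call was lost without Cdx1+/+ replicate 3 (adjusted p = 0.0541). A dimmer probe of the same transcript (61589667 to 61589726) read −3.50, −3.35 and −3.64 in Cdx1-/- against −4.11, −3.84 and −3.51 in Cdx1+/+ mTEC. There the groups overlapped, and the difference of 0.32 did not pass (SE 0.17, adjusted p over probes 0.256).

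Bmi1 encodes a core subunit of Polycomb repressive complex 1, which silences cell cycle inhibitors, and has been proposed as a marker of slowly cycling crypt cells. Its brighter probe (NM_007552, chromosome 2 from 18607531 to 18607590, mm9) read 0.96, 0.66 and 0.66 in Cdx1-/- mTEC and 0.33, 0.11 and 0.19 in Cdx1+/+ mTEC. The groups were apart, and the log2 difference was 0.55 (SE 0.12, 95% interval 0.27 to 0.83, adjusted p = 0.0302). The dimmer Bmi1 probe, from 18607987 to 18608046, read −0.60, −0.75 and −0.68 in Cdx1-/- and −1.26, −1.52 and −1.21 in Cdx1+/+ mTEC. Both probes gave the same direction with groups apart, the second with a difference of 0.65 (SE 0.11, adjusted p over probes 0.0195). For the brighter probe the call was lost within slide 1 (0.452, adjusted p = 0.0593) and whenever any 1 of the 6 arrays was left out (adjusted p 0.0574 to 0.0946), with the difference between 0.452 and 0.611.

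**Figure D2:**
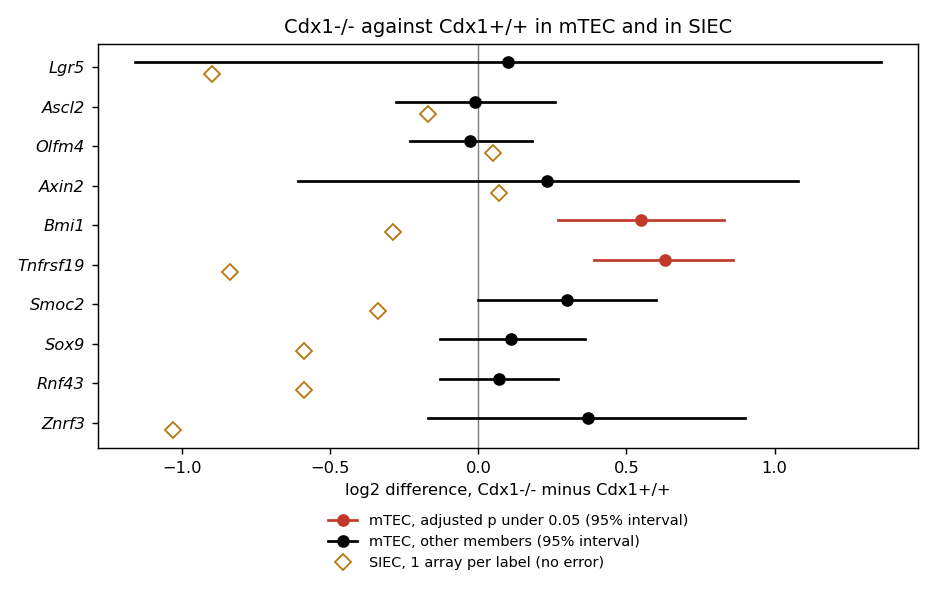
Log2 difference of Cdx1-/- minus Cdx1+/+ for each gene, as the mTEC estimate with its 95% interval (circles, 3 arrays against 3) and as the single SIEC difference by label (diamonds, 1 array each, no error). In mTEC the intervals of Bmi1 (0.27 to 0.83) and Tnfrsf19 (0.39 to 0.86) lie above 0, while the SIEC differences of these genes are −0.29 and −0.84.

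Lgr5, the R-spondin receptor that defines crypt base stem cells, was at the edge of detection in mTEC. Its probe for NM_010195 (chromosome 10 from 114887403 to 114887462, mm9, minus strand) read −4.27, −4.67 and −4.50 in Cdx1-/- and −3.72, −5.88 and −4.13 in Cdx1+/+ mTEC. It was well above background on 2 of 3 arrays of each genotype, and the lowest Cdx1+/+ array, replicate 2, was 1 of those that was not. The difference of 0.10 had an interval of −1.16 to 1.36 (adjusted p = 0.919), so changes of about 2-fold either way were not detectable here. It turned to −0.555 without Cdx1+/+ replicate 2 (adjusted p = 0.13). A further Lgr5 probe, annotated to ENSMUST00000105272, was well above background on 0 of the 8 arrays.

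The stem cell transcription factor gene Ascl2 and the secreted-protein genes Olfm4 and Smoc2 were well above background on all 8 arrays. Ascl2, a basic helix-loop-helix factor that maintains Lgr5-positive stem cells, read 1.56, 1.70 and 1.82 in Cdx1-/- and 1.58, 1.67 and 1.86 in Cdx1+/+ mTEC. Olfm4, a secreted glycoprotein of the crypt base, read 0.28, 0.42 and 0.39 in Cdx1-/- and 0.44, 0.33 and 0.41 in Cdx1+/+ mTEC. For both genes the genotypes overlapped, with intervals of −0.28 to 0.26 for Ascl2 and −0.23 to 0.18 for Olfm4 around differences of −0.01 and −0.03 (adjusted p = 0.975 and 0.859). Smoc2, a calcium-binding matrix protein enriched in Lgr5-positive cells, read 1.36, 1.44 and 1.15 in Cdx1-/- and 1.13, 0.82 and 1.11 in Cdx1+/+ mTEC. Its arrays did not overlap, but the difference of 0.30 did not pass (SE 0.13, adjusted p = 0.162).

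The negative feedback genes of the pathway did not pass either. Axin2, the scaffold of the β-catenin destruction complex, read −5.24, −4.32 and −4.40 in Cdx1-/- and −4.22, −5.31 and −5.13 in Cdx1+/+ mTEC. It was well above background on 2 of the 3 Cdx1-/- and 1 of the 3 Cdx1+/+ arrays, and its interval was −0.61 to 1.08 (adjusted p = 0.692). Rnf43 read 2.18, 2.01 and 2.10 in Cdx1-/- and 2.04, 2.04 and 1.99 in Cdx1+/+ mTEC. The genotypes overlapped, with a difference of 0.07 (interval −0.13 to 0.27, adjusted p = 0.604). Its partner ligase Znrf3 read −2.68, −1.87 and −2.70 in Cdx1-/- and −2.76, −2.76 and −2.83 in Cdx1+/+ mTEC. Only Cdx1-/- replicate 2 stood well apart: the difference of 0.37 (adjusted p = 0.311) became 0.096 without it.

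Sox9, an HMG-box factor of the crypt base and of Paneth cells, was printed as 10 spots of 1 probe (9 usable on Cdx1-/- mTEC replicate 3), whose SD within an array was 0.044 to 0.116. It read 0.66, 0.74 and 0.63 in Cdx1-/- and 0.73, 0.43 and 0.54 in Cdx1+/+ mTEC. The SD between arrays was 0.06 in Cdx1-/- and 0.15 in Cdx1+/+ mTEC, and the difference was 0.11 (interval −0.13 to 0.36, adjusted p = 0.492).

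Upstream of these targets, ligand genes changed in both directions in Cdx1-/- mTEC, and the inhibitors that passed were all lower. Of 16 ligand genes tested, 2 rose and 3 fell. Of 17 secreted or membrane inhibitors 0 rose and 5 fell, and 1 had an unadjusted p under 0.05 in the upward direction (limma). Over all genes 6.28% rose and 6.61% fell. The lists were chosen with earlier results of these data known, so these counts beside the shares are a description only. Sfrp5, a secreted Frizzled-related protein that binds Wnt ligands, read 0.22, 0.60 and 0.48 in Cdx1-/- and 2.34, 2.48 and 2.36 in Cdx1+/+ mTEC. Its log2 difference was −1.96 with a standard error of 0.12 (adjusted p = 0.00198), and it passed the test under all 18 alternatives. These alternatives are not all distinct. For mTEC, the slide block, the fit within slide 1 and the fit without Cdx1-/- replicate 1 are the same fit. A spread shared over all 8 arrays gave the main result again. Counts of alternatives, here and below, are therefore not counts of separate checks. Dkk2 and Dkk1, which block Lrp5 and Lrp6, fell by 1.06 (adjusted p = 0.0102) and 0.66 (adjusted p = 0.0112), and the Lrp antagonist Sost by 1.05 (adjusted p = 0.0182). The fifth, Sfrp2, chosen after its value was seen, fell by 0.52 (adjusted p = 0.0333). The Sost and Sfrp2 calls were lost under 5 of 17 and 9 of 18 alternatives. The median difference was −0.31 over the inhibitors and −0.27 over the ligands.

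Among ligands, Wnt10a rose by 0.59 (adjusted p = 0.0105), with 4.54, 4.40 and 4.40 in Cdx1-/- against 3.84, 3.82 and 3.91 in Cdx1+/+ mTEC. The groups were apart by more than their spread. Wnt8b fell by 0.72, Wnt11 by 0.60 and Wnt9b by 0.71 (adjusted p = 0.00898, 0.0105 and 0.0178). Wnt6, chosen after its value was seen, rose by 0.42 (adjusted p = 0.0245), a call lost under 9 of 18 alternatives, within slide 1 among them, and the Wnt9b call was lost under 4 of 18. Of 4 R-spondin genes 1 fell, Rspo4, by 0.73 (adjusted p = 0.0113). Of 17 receptors and coreceptors 2 rose and 0 fell, a share near the 12.9% of all genes that passed in either direction: Fzd3 by 0.48 (adjusted p = 0.0155) and Fzd7 by 0.51 (adjusted p = 0.0478). The Fzd7 call held under only 4 of 18 alternatives, and the Fzd3 and Rspo4 calls under 16 and 17.

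Inside the cell, by limma, 0 of 13 cytoplasmic components and 0 of 12 Tcf/Lef factors and cofactors passed, against 12.9% of all genes, the β-catenin gene Ctnnb1 differing by −0.02 and Lef1 by 0.04. At an unadjusted p under 0.05 there were 2 of the 13 and 4 of the 12, against 31.1% of all genes, so the Tcf/Lef count was near the share of all genes. With the replicate number as a block 1 gene of each of these lists fell, and 1 Tcf/Lef gene fell under quantile, detected-probe and authors' scaling. Of 20 other Wnt target and crypt genes, 1 rose, the Dishevelled inhibitor Nkd2 by 0.69 (adjusted p = 0.00987), and 1 fell, the cyclin gene Ccnd1 by 0.43 (adjusted p = 0.0415, lost under 8 of 18 alternatives). With the replicate block 3 rose, Ephb3 (0.529, adjusted p = 0.0282) and Slc12a2 (0.342, adjusted p = 0.0492) beside Nkd2, and Ephb3, a crypt ephrin receptor gene, was also called with the slide block (adjusted p = 0.0369).

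**Figure D3:**
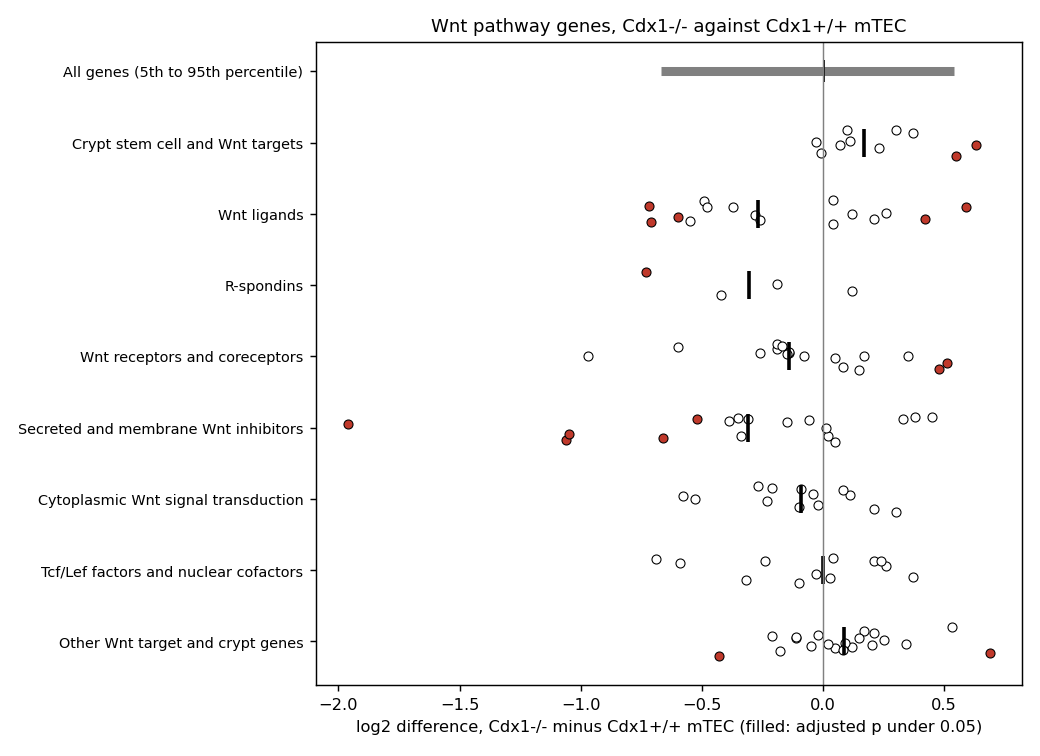
Log2 difference of Cdx1-/- minus Cdx1+/+ mTEC for each tested gene of 8 lists (points), with the list's median (tick) and, in grey, the 5th to 95th percentile of all genes (−0.67 to 0.54). Filled points passed an adjusted p of 0.05. Sfrp5, at −1.96 among the inhibitors, is the lowest point, and no cytoplasmic or Tcf/Lef gene is filled.

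Markers of other cells moved between the same mTEC arrays. Villus enterocyte markers fell in 9 of 12 genes, with summed linear levels (over the list's genes in the tissue test) of 25.7 to 27.1 in Cdx1-/- and 54.3 to 60.4 in Cdx1+/+ mTEC. Tuft cell markers rose in 4 of 6 genes, with summed levels of 8.26 to 9.61 in Cdx1-/- and 4.19 to 5.72 in Cdx1+/+ mTEC. Mesenchymal markers summed to 40.5 to 48.4 in Cdx1-/- and 51.5 to 56.1 in Cdx1+/+ mTEC, with 2 of 9 lower, Thy1 (−0.59) and Pdgfrb (−0.79). Thy1 has the largest linear level in that sum and weighs most in it. The list's median log2 difference was −0.06, with Col1a1 at −0.09, Dcn at −0.01, Lum at −0.06 and Col1a2 at 0.29. Cycling cell markers overlapped, at 39.2 to 46.7 and 42.4 to 47.5, with 0 of 10 called. These markers were above background in both genotypes, and their part in the differences of Tnfrsf19, Bmi1 and the inhibitors was not tested. In pooled cells, fewer cells of a type and less RNA per cell cannot be told apart.

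Between tissues, 7 of the 10 genes were lower in mTEC than in SIEC, with all arrays apart, and none was higher. Lgr5, Smoc2 and Olfm4 were lower by 49.7-, 17.1- and 10.6-fold, and Axin2, Ascl2, Znrf3 and Rnf43 by 6.99-, 5.70-, 2.63- and 2.11-fold. Their order depends on scaling: with normexp correction Smoc2 (−3.783) differed more than Lgr5 (−3.758), and with quantile normalization Axin2 (−3.124) more than Olfm4 (−2.792). Of all 24681 genes tested, 83.7% passed, 48.4% lower and 35.2% higher in mTEC, and the arrays of the tissues did not overlap for 82.2%. The median log2 difference, mTEC minus SIEC, was −1.952 over the 10 genes and −0.373 over all genes. That general shift depends on scaling: it was −0.851 in the authors' table and 0.467 when the 75th percentile was taken over probes detected on all arrays. The share of calls that were higher in mTEC moved with it: it was 42.1% as scaled here, 34.4% and 66.4% under those scalings and 30.2% with normexp correction.

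Lgr5 averaged −4.53 ± 0.74 on the mTEC arrays (SD, n = 6) and read 0.66 and 1.55 on the SIEC arrays. The difference was −5.63 (SE 0.53, adjusted p = 2.21e-05), a fitted value, since only 4 of the 6 mTEC arrays were well above background. Smoc2 averaged 1.17 ± 0.22 in mTEC and read 5.09 and 5.43 in SIEC (difference −4.09, adjusted p = 2.27e-07). Olfm4 averaged 0.38 ± 0.06 in mTEC and read 3.81 and 3.76 in SIEC (difference −3.41, adjusted p = 2.99e-08), and Ascl2 1.70 ± 0.12 against 4.12 and 4.30 (difference −2.51, adjusted p = 5.15e-07). For these stem cell genes the levels thus ran from the SIEC arrays down to mTEC. None of them passed the genotype test in mTEC, though the Smoc2 arrays were apart by genotype. The Lgr5 interval there was wide (−1.16 to 1.36). All 4 tissue differences were negative under each of the 5 scalings, and Lgr5 read −3.758 at its smallest, with normexp correction.

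The feedback genes stood in the same order with smaller gaps. Axin2 averaged −4.77 ± 0.51 in mTEC and read −1.93 and −2.00 in SIEC, a fitted difference of −2.81 (adjusted p = 9.75e-05) with 3 of 6 mTEC arrays well above background. Rnf43 averaged 2.06 ± 0.07 in mTEC against 2.84 and 3.43 in SIEC (difference −1.08, adjusted p = 0.000281), and Znrf3 −2.60 ± 0.36 against −1.73 and −0.69 (difference −1.39, adjusted p = 0.00497). Rnf43 and Znrf3 lost their calls when the percentile was taken over probes detected on all arrays (−0.237 and −0.553, adjusted p = 0.155 and 0.159). Znrf3 also lost it without the SIEC array labelled Cdx1+/+ (−0.692, adjusted p = 0.0823).

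Bmi1, Tnfrsf19 and Sox9 did not pass the tissue test. Bmi1 averaged 0.48 ± 0.33 in mTEC (SD, n = 6) and read 0.26 and 0.55 in SIEC, and the order of its arrays put all 3 Cdx1-/- mTEC arrays above both SIEC arrays, with Cdx1+/+ mTEC at 0.11 to 0.33. Tnfrsf19 averaged −0.92 ± 0.35 in mTEC and read −0.87 and −0.04 in SIEC, and Sox9 0.62 ± 0.12 against 0.58 and 1.18. Their differences were 0.08, −0.46 and −0.26 (adjusted p = 0.718, 0.167 and 0.188). Without the SIEC array labelled Cdx1-/-, the Tnfrsf19 and Sox9 differences were −1.191 and −0.615 (adjusted p = 0.000186 and 0.00667), and without the one labelled Cdx1+/+ Bmi1 was higher in mTEC by 0.50 (adjusted p = 0.0274). Scaling also moved them: over probes detected on all arrays Bmi1 and Sox9 were higher in mTEC (0.919 and 0.579, adjusted p = 0.00217 and 0.0102).

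**Figure D4:**
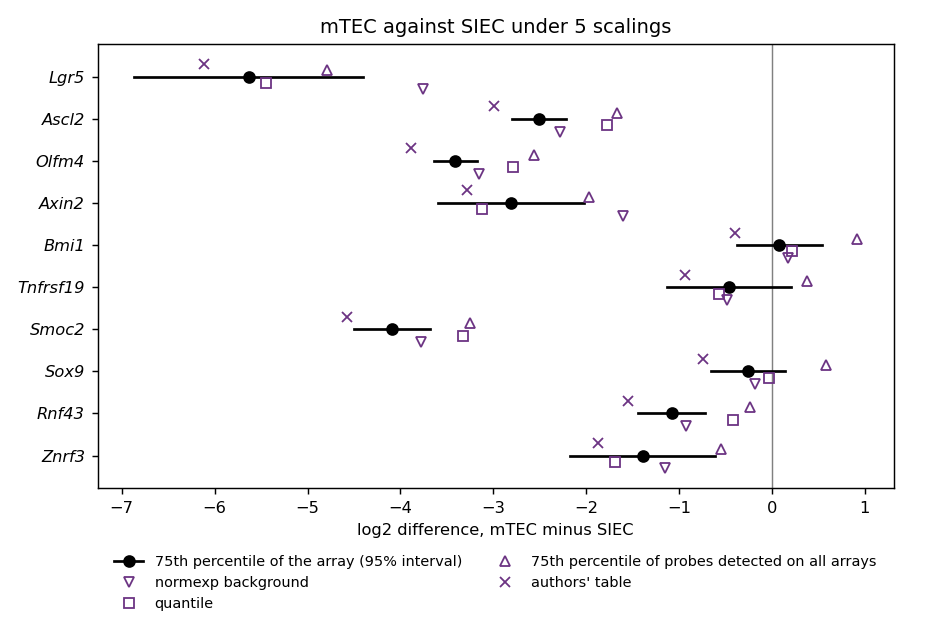
Log2 difference of mTEC minus SIEC for each gene, with the 75th percentile scaling and its 95% interval (black, 6 against 2 arrays) and under 4 other scalings (purple symbols). Lgr5, Ascl2, Olfm4, Axin2 and Smoc2 lie at or below −1.607 under each of the 5 scalings, while Bmi1, Tnfrsf19 and Sox9 lie on either side of 0.

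Slide and tissue are partly shared, since both SIEC arrays lay on slide 2 with Cdx1-/- mTEC replicate 1. Within that slide, Cdx1-/- mTEC replicate 1 minus the SIEC array labelled Cdx1-/- gave −4.93 for Lgr5, −3.73 for Smoc2, −3.53 for Olfm4, −3.31 for Axin2 and −2.57 for Ascl2. It gave −0.66 for Rnf43 and −0.95 for Znrf3, and 0.70, 0.38 and 0.08 for Bmi1, Tnfrsf19 and Sox9. All 7 genes called lower in mTEC were lower within the slide as well, by single values with no test. That sign is no separate check on the slide, since every mTEC array lay below both SIEC arrays for these genes. For Axin2 the mTEC reading, −5.24, was not well above background, so the size of its difference is uncertain.

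Among the other genes of the pathway, many that send or block the signal were detected in mTEC and not in SIEC. No SIEC array was well above background for 9 of 16 ligand genes, 4 of 4 R-spondin genes and 11 of 17 inhibitors. The detection floors differed, however. The lowest level well above background was −4.02 and −3.56 on the SIEC arrays and −5.35 to −4.65 on the mTEC arrays. A dim gene can thus be detected in mTEC alone through the floor. Of these lists 13, 4 and 15 genes were called higher in mTEC and 0 lower, against 35.2% and 48.4% of all genes. Entry to the test through mTEC alone favours a difference without forcing one. Wnt2b, named after its value was seen, entered so and differed by −0.05 (limma, adjusted p = 0.921). These counts therefore describe detection and support nothing further. Wnt10a was at least 246-fold, Wnt10b at least 33.7-fold and Wnt8b at least 18.4-fold higher in mTEC, since none was well above background on a SIEC array. Such bounds set the mTEC mean against the probe's SIEC value or, where that is lower, against the lowest signal well above background on the SIEC array. Wnt4 was higher by 6.74 on the log2 scale, a fitted value with 1 of 2 SIEC arrays above background. The R-spondin gene Rspo1 was at least 21.4-fold and Rspo3 at least 4.01-fold higher, and of the inhibitors Sostdc1 at least 17.3-fold, Dkk1 at least 15-fold, Sfrp4 at least 4.86-fold and Sfrp2 at least 2.81-fold. Other bounds were small, 1.53-fold for Rspo2, 1.12-fold for Rspo4 and 1.11-fold for Sost. Wnt8a, Wnt2b and Wif1 had no bound. Of these, Sost, Wnt8a, Wnt2b and Wif1 were named after their values were seen. Under the 4 other scalings 2 to 4 R-spondin genes and 12 to 15 ligand genes were higher and 0 to 2 lower, and 11 to 16 inhibitors were higher and 0 to 2 lower.

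Receptors were split, with 7 of 17 higher and 8 lower in mTEC: Fzd10 was at least 27.6-fold higher and Fzd1 5.52-fold higher, whereas Fzd5 and the R-spondin receptor gene Lgr4 were lower by 3.96 and 2.80 on the log2 scale. Of 13 cytoplasmic components 10 were lower in mTEC, Ctnnb1 by 1.38, Gsk3a by 1.25 and Dvl1 by 0.97, but with the percentile over probes detected on all arrays the split was 3 higher and 3 lower. Lef1 and Tcf7 were 7.85- and 6.47-fold higher and Tcf7l1 at least 5.88-fold higher in mTEC, while Pygo2 was lower by 1.32. Of 9 thymocyte and T cell markers, 3 were also higher in mTEC (Ptcra, Dntt and Rag1) and 4 lower. These 3 were well above background on every mTEC array, and the part of such cells in the Lef1 and Tcf7 levels was not tested. Of 20 other target and crypt genes 11 were lower, among them the Wnt-induced factor gene Sp5 (−5.66), Slc12a2 (−4.35) and Prom1 (−4.32), and 4 were higher, Clu by 6.93. Over probes detected on all arrays, these counts were 9 lower and 8 higher. All 10 cycling cell markers were lower in mTEC, at summed levels of 39.2 to 47.5 in mTEC and 181 and 248 in SIEC, and their part in the lower crypt genes was not tested.

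Across the 8 arrays the genes that followed Lgr5 most closely were Slc5a4b, Cdca7 and H2-T3, by the root mean square difference of log2 levels centred on each gene's own mean (0.452, 0.465 and 0.475). Cdca7 encodes a cell division cycle-associated nuclear protein. The likeness rests mainly on the tissue gap, with mTEC minus SIEC differences of −6.17, −5.25 and −5.85 for the 3 genes. In the SIEC pair only Cdca7 shared the direction of Lgr5, at −0.75, against 0.12 for Slc5a4b and 0.46 for H2-T3.

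In the SIEC pair, 8 of the 10 genes were lower on the array labelled Cdx1-/- than on the array labelled Cdx1+/+, and 1 of them, Znrf3, by over 2-fold. With 1 array per label there is no test, and over all 19132 genes 9.26% differed by at least 2-fold, 3.55% lower and 5.71% higher. The median log2 difference was −0.469 over the 10 genes and −0.042 over all genes. Znrf3 read −1.73 and −0.69 on the arrays labelled Cdx1-/- and Cdx1+/+, a difference of −1.03, below which lay 3.4% of all genes. Lgr5 differed by −0.90 (4.1% of genes lower), Tnfrsf19 by −0.84 (4.6%), and Sox9 and Rnf43 by −0.59 each (8.5%). Smoc2, Bmi1 and Ascl2 differed by −0.34, −0.29 and −0.17, and Axin2 and Olfm4 by 0.07 and 0.05. The ligase and receptor genes and Sox9 thus lay lower on the array labelled Cdx1-/-, while Axin2 and Olfm4 read nearly the same on both.

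Other epithelial markers moved between the same SIEC arrays. Of 21 other Wnt target and crypt genes 15 were lower on the array labelled Cdx1-/-, and 3 by over 2-fold, Nkd1 (−1.16), Myc (−1.15) and Cdk6 (−1.88, not well above background on that array), named after their values were seen. Cycling cell markers were lower in 10 of 11, at summed levels of 181 against 248, and tuft cell markers in 5 of 5, at 2.86 against 9.43. Villus enterocyte markers were higher in 12 of 12, at 3960 against 2530, while Paneth cell markers summed to 1490 and 1410. T cell markers were higher in 7 of 7, at 35.5 against 12.7, although the sort excluded CD45-positive cells. Mesenchymal markers were higher in 7 of 7, at 4.30 against 2.26, with Col1a1 and Lum well above background on neither array. Col3a1, Col6a1 and Fbn1 were well above background on only 1 of the arrays. Thy1, at log2 levels of 1.27 and 0.55, weighs most in the mesenchymal sum. The part of cell makeup in the lower crypt genes was not tested, and genotype, pool and animal cannot be told apart with 1 array each.

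**Figure D5:**
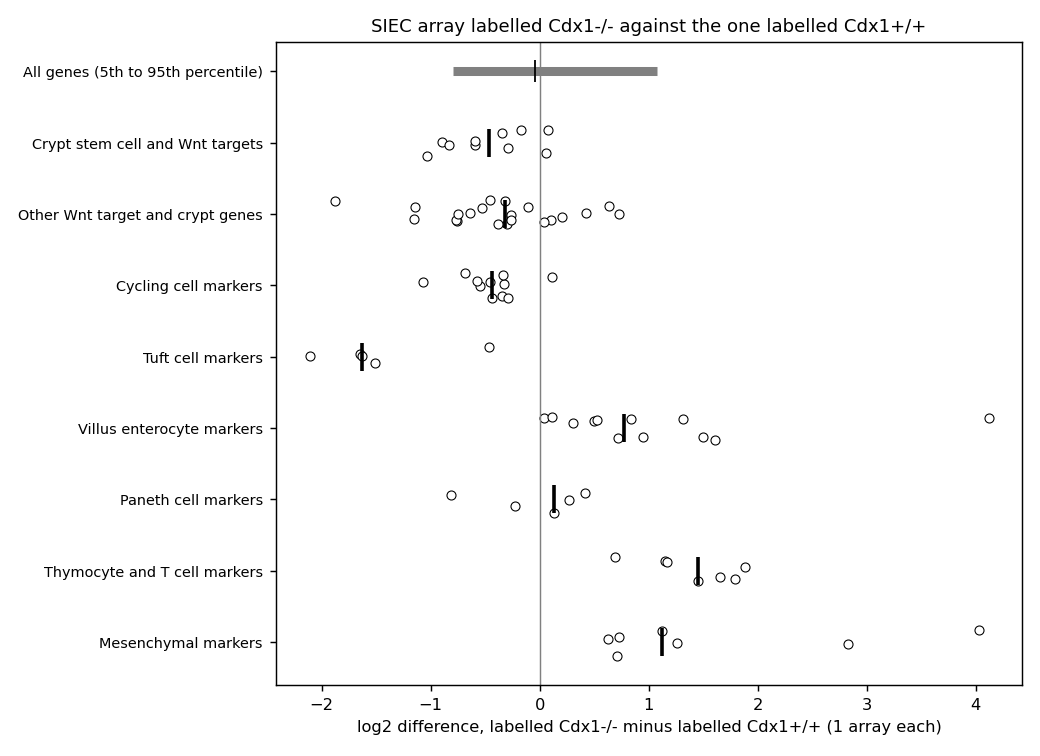
Log2 difference of the SIEC array labelled Cdx1-/- minus the one labelled Cdx1+/+ for each measured gene of 8 lists (points), with the list's median (tick) and, in grey, the 5th to 95th percentile of all genes (−0.79 to 1.08). Crypt, cycling and tuft lists have medians below 0 (−0.47 for the 10 genes), and villus, T cell and mesenchymal lists lie above 0.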

How the data were processed

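A company extracted and labelled the RNA, per the labels' protocols. Linear spot intensity values in the deposited scanner files come from Agilent Feature Extraction 10.7.3.1, and per the file headers were background-subtracted and detrended within each array. Normalized signal values in the authors' deposited table equal each array's processed intensity times 1 constant, with a median of 1 per column, and no source used here says how that constant was set. Positions of probes on mm9 come from the files.

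From 59305 non-control spots, 55681 probes were read and 12 left out as outlier spots. After a log2 transform each array's 75th percentile was subtracted, and repeated spots were averaged per probe. The accession named 27506 probes through a RefSeq gene table, and 28163 kept the file's name. A gene was represented by the brightest of its probes that were well above background on 2 or more arrays of a group (on 1 in the SIEC pair).

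Groups were compared with limma 3.58.1 (lmFit, eBayes) in R 4.3.3, adjusted over all genes by Benjamini-Hochberg. The genotype test used the 6 mTEC arrays, and the tissue test all 8 with genotype as a term. The fit was tested on simulated data. Alternatives were normexp correction, quantile normalization, the 75th percentile over detected probes, the authors' table, other probe choices and filters, slide (read from the array identifiers) and replicate blocks, and leaving out each array.

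Replicate numbers come from the titles, and a pairing of the mTEC samples by number was not established. Deviations from the group means correlated by 0.322, 0.147 and 0.148 for samples of the same number and by −0.222 to 0.056 for others. Deviations cancel within each group, so these correlations depend on each other. The main genotype test used no pairing.

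The members and gene lists were chosen with earlier results of these data known. Values are given for all 10 genes on every array, and for other pathway lists the counts and up to 4 genes of smallest p per comparison. The 3 genes most like Lgr5 were taken by root mean square difference. Genes named outside this rule are said to be. Python tools were pandas 2.3.3 and matplotlib 3.10.9. The number of arrays limits the precision.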

Additional observations from a re-analysis of the deposited data

Results flagged for a closer look

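Among the 6 mTEC arrays, Znrf3 read −1.87 on Cdx1-/- replicate 2, which lies apart from the other 5 arrays (−2.83 to −2.68). By Dixon's criterion chance flags about 1 in 20 groups.

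For 4 genes every Cdx1-/- mTEC array lay above every Cdx1+/+ mTEC array while the single SIEC pair went the other way by label. The mTEC genotypes were apart for 38.0% of all genes, and 8 of the 10 genes were lower on the SIEC array labelled Cdx1-/-. The pattern is therefore not read as particular to these 4 genes. The SIEC differences were −0.29 for Bmi1, −0.84 for Tnfrsf19, −0.34 for Smoc2 and −1.03 for Znrf3, against 0.55, 0.63, 0.30 and 0.37 in mTEC. The difference between the tissues was not tested, and SIEC has 1 array per label.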

How the results depend on the processing

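In mTEC, 3137 genes passed in all, and 1971 with normexp correction, 1322 without the filter on dim probes and 1779 with slide as a block or within slide 1. Leaving out 1 array gave 1054 to 1779. Of the 10 genes 2 rose, but 1 without the filter on dim probes (Bmi1, adjusted p = 0.0768), with slide as a block or within slide 1. Leaving out 1 array left 0 to 1, with 0 without Cdx1+/+ replicate 3. The replicate block called the same 2 genes (Bmi1 0.551, Tnfrsf19 0.625) and changed no other call among the 10. Signs turned only where no call was made: Lgr5 −0.21 with normexp and −0.004 with the slide block or within slide 1, Ascl2 0.007 with normexp and in the authors' table and 0.062 by slide, Olfm4 0.017 by slide, Axin2 −0.001 with normexp. Leaving out 1 array ranged from −0.555 to 0.529 for Lgr5, −0.071 to 0.07 for Ascl2 and −0.058 to 0.017 for Olfm4.

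Between tissues, 0 of the 10 genes were higher in mTEC, but 2 with the 75th percentile over probes detected on all arrays, and 0 to 1 when 1 array was left out. Genes of the set lower in mTEC numbered 5 to 9 over all alternatives. Bmi1 turned to −0.399 in the authors' table, −0.056 with the mean of its probes and −0.342 in Cdx1+/+ arrays only. Tnfrsf19 turned to 0.379 over probes detected on all arrays and 0.27 in Cdx1-/- arrays only, and Sox9 to 0.579 and 0.094. Leaving out 1 array ranged from −0.342 to 0.50 for Bmi1, −1.191 to 0.27 for Tnfrsf19 and −0.615 to 0.094 for Sox9. The fewer arrays and the single SIEC array per label are part of these changes by construction, and the other causes were not tested. Background limits Lgr5 and Axin2 in mTEC.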
